A study of Mus musculus with 24 samples.

Results

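Itgam, Itgal, Itgb2, Itga4, Itgb1, Itgav, Itgb8, Itgax, Cd44 and Icam1 encode integrin subunits and adhesion receptors of macrophages, and their mRNA levels were followed in cells labelled wild type or knockout for Olfml3, the gene of a secreted glycoprotein. The 10 genes were chosen by symbol. All 10 were present in both deposited tables, each of 56691 genes, and all 10 passed the filter on low counts, which left 13639 genes in RAW264.7 cells and 14057 in bone marrow-derived macrophages (BMDMs). In RAW264.7 cells Itgb8 passed that filter only through the LPS libraries labelled knockout, where it was high. Itgb8 in BMDMs and Itgax in RAW264.7 cells passed it only through the LPS libraries, where they were high. RAW264.7 is a mouse macrophage-like line, and its cells labelled knockout descend from sorted CRISPR-Cas9 clones. How many clones gave the libraries is not stated. BMDMs were cultured from the marrow of 8-week-old male C57BL/6 mice, wild type or with germline Olfml3-/- made by CRISPR-Cas9. Cells of either genotype received PBS or 100 ng/mL lipopolysaccharide (LPS), a bacterial cell wall component, for 4 h, and 3 libraries were made of each of the 8 resulting groups, 24 in all. The genotype tag contradicts the title in 12 of 24 samples, with knockout PBS tagged wild type and wild-type LPS tagged knockout, and the titles were followed.

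Integrins are heterodimers of an alpha and a beta chain that bind matrix or counter-receptors after activation from inside the cell. On leukocytes the beta-2 chain, Itgb2, pairs with Itgal to form LFA-1, with Itgam to form Mac-1 (CD11b/CD18, also complement receptor 3) and with Itgax to form CD11c/CD18. Itga4 with Itgb1 forms VLA-4, which binds VCAM-1 and fibronectin, Itgav with Itgb8 binds latent TGF-beta, Cd44 is the main hyaluronan receptor, and Icam1 is a ligand of LFA-1 and Mac-1 induced by inflammatory stimuli. Macrophages use these proteins to attach, migrate, phagocytose and form contacts with other cells.

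On GRCm38, Itgal lies at chr7:127296260-127335138, Itgam at chr7:128062640-128118491 and Itgax at chr7:128129547-128150657, all on the plus strand, with Itgam and Itgax neighbouring each other. Itga4, Itgav and Cd44 lie on chromosome 2, Itgb1 on chromosome 8, Icam1 on chromosome 9, Itgb2 on chromosome 10 and Itgb8 on chromosome 12. In the GENCODE M21 annotation 5 of the 10 genes overlap another gene, namely Itga4 with Cerkl, Itgav with Gm13684 and Dnmt3l-ps1, Icam1 with Gm47079, Cd44 with Gm23731 and Itgam with the gene model Gm49368. Gm49368 lies on the same strand as Itgam, so strand cannot separate their reads where they overlap. The other overlapping genes lie on the strand opposite to the adhesion gene. Whether reads were counted by strand is not stated, so those reads cannot be told apart either.

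RefSeq promoter sequences of the GRCm38.p6 build, 250 bases before to 50 bases after the RefSeq start of the gene, matched 8 of the 10 genes, all but Itgal and Itgb2. Shown as examples are those of Itgb8 and Icam1, which had the largest LPS folds in BMDMs, and of the neighbouring genes Itgam and Itgax, which encode partners of the same beta chain. The RefSeq and GENCODE starts differ for Itgb8, and its window lies inside the GENCODE gene. Capitals mark matches on either strand to GGAANTTCC, a core of the NF-kappaB site, GAGGAA, a core of the site of the macrophage factor PU.1, and TGANTCA, the AP-1 site.
Icam1, chr9:21015690-21015989, plus strand: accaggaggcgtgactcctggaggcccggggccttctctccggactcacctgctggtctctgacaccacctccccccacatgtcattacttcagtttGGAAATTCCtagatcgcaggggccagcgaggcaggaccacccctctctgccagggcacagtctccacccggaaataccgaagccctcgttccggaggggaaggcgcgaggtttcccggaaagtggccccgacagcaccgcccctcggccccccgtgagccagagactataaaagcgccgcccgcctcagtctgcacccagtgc
Itgam, chr7:128062390-128062689, plus strand: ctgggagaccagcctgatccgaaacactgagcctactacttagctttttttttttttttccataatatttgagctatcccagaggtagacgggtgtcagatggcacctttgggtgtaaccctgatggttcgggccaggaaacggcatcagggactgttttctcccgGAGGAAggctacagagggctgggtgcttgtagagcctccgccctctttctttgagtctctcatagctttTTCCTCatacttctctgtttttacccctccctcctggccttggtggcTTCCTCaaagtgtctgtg
Itgax, chr7:128129300-128129599, plus strand: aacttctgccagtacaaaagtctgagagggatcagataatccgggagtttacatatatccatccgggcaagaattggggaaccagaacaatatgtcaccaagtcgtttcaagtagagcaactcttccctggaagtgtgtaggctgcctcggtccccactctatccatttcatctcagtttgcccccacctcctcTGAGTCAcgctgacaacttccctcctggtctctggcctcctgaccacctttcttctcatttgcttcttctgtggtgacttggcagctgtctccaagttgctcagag
Itgb8, chr12:119238227-119238526, minus strand: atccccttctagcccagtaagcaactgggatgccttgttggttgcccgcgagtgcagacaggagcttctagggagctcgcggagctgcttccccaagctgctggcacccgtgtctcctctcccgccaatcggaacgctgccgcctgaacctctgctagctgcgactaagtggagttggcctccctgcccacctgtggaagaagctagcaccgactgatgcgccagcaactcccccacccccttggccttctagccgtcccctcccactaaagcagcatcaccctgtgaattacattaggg
The 3 motifs were chosen after the promoters were seen, so the shares below describe the windows and are no support for a site. The Icam1 window holds 1 match to GGAANTTCC, a motif found in 0.928% of 32851 promoter windows of the same length. Itgam holds 3 matches to GAGGAA, found in 28.3% of windows, and Itgax holds 1 match to TGANTCA, found in 7.81%. The Itgb8 window holds none of the 3 motifs, which says nothing about the factors. Among the windows not shown, Itgav and Cd44 hold 2 matches each to GAGGAA, Itgb1 holds 1, and Itga4 holds none of the motifs.

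The deposited values are read counts per gene and FPKM, the fragments per kilobase of gene length scaled to the library total. A RAW264.7 library held between 11638273 and 16478616 counts and a BMDM library between 17121240 and 22873094. Levels below are scaled FPKM, counts per kilobase scaled to the library size after edgeR's TMM factor, so that they match the fold changes. A gene was called changed at an adjusted p under 0.05 (edgeR quasi-likelihood test, Benjamini-Hochberg adjusted over all genes tested) and a fold of at least 1.5. The study calls its replicates biological but does not say whether the libraries of a group came from separate cultures or mice, so these p-values measure the spread between these libraries. In this bulk RNA, fewer cells of a type and less RNA per cell cannot be told apart. Olfml3 itself had 71 to 88 counts in wild-type PBS and 33 to 35 in wild-type LPS BMDMs and 0 to 4 in knockout BMDMs. In RAW264.7 cells it went against the label, with 12 to 16 counts in wild-type PBS, 66 to 105 in PBS libraries labelled knockout, 10 to 26 in wild-type LPS and 1357 to 1524 in LPS libraries labelled knockout, and the RAW264.7 directions below are those of the labels.

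Replicate 1 of the RAW264.7 PBS libraries labelled knockout stood apart from replicates 2 and 3. Chi-square per degree of freedom between libraries over all genes was 88.9 and 90.0 against them, while it was 2.33 between replicates 2 and 3. The 3 wild-type LPS BMDM libraries also differed more than other replicates, at 5.14 to 11.4, where the other groups of BMDMs ran from 1.80 to 2.82. Among the adhesion genes, replicate 1 departed most in Itga4, Itgax, Itgal and Itgav, and it lay beside the other libraries in Cd44, Icam1 and Itgam.

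**Figure D1:**
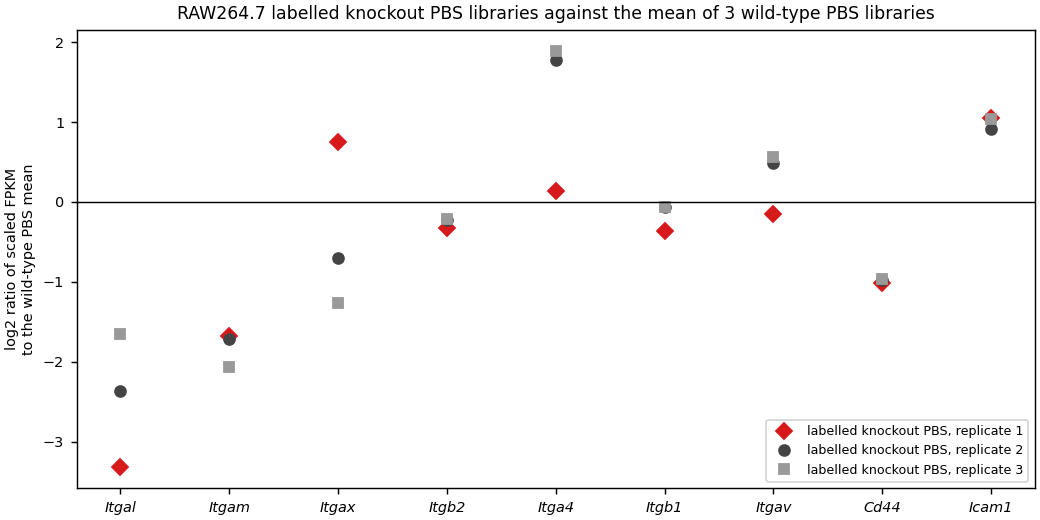
Each point is the log2 ratio of scaled FPKM in 1 RAW264.7 PBS library labelled knockout to the mean of 3 wild-type PBS libraries, for 9 adhesion genes (Itgb8, with 0 to 2 counts, is left out). Replicate 1, the red diamond, is at 0.13 for Itga4 where replicates 2 and 3 are at 1.78 and 1.89, and all 3 libraries lie together for Cd44 and Icam1.

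With PBS, Itgb2, Itgb1 and Cd44 were among the 4 highest of the 10 genes in wild-type cells of both kinds. In wild-type RAW264.7 cells Itga4 was highest at 81.4 ± 2.8 scaled FPKM (SD, n = 3), followed by Itgb2 at 55.2 ± 1.8, Itgb1 at 47.6 ± 1.8, Cd44 at 30.5 ± 1.4 and Icam1 at 12.9 ± 0.088. Itgav at 6.80 ± 0.046 and Itgam at 6.02 ± 0.36 came next, and Itgal, Itgax and Itgb8 were below 1. Wild-type BMDMs had most Itgb2, at 273 ± 2.8, then Itgb1 at 189 ± 1.4, Cd44 at 63.3 ± 1.3, Itgam at 39.2 ± 1.0 and Itga4 at 18.8 ± 0.39. Itgav at 13.1 ± 0.33 and Icam1 at 12.7 ± 0.69 were neighbours whose libraries overlapped, followed by Itgax at 8.31 ± 0.31, Itgal at 5.08 ± 0.31 and Itgb8 at 0.0292 ± 0.0066. The levels of both cell types come from tables scaled separately and were not tested against each other. After LPS, Icam1 led in wild-type BMDMs at 572 ± 4.7 and Cd44 in wild-type RAW264.7 cells at 162 ± 1.1.

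**Figure D2:**
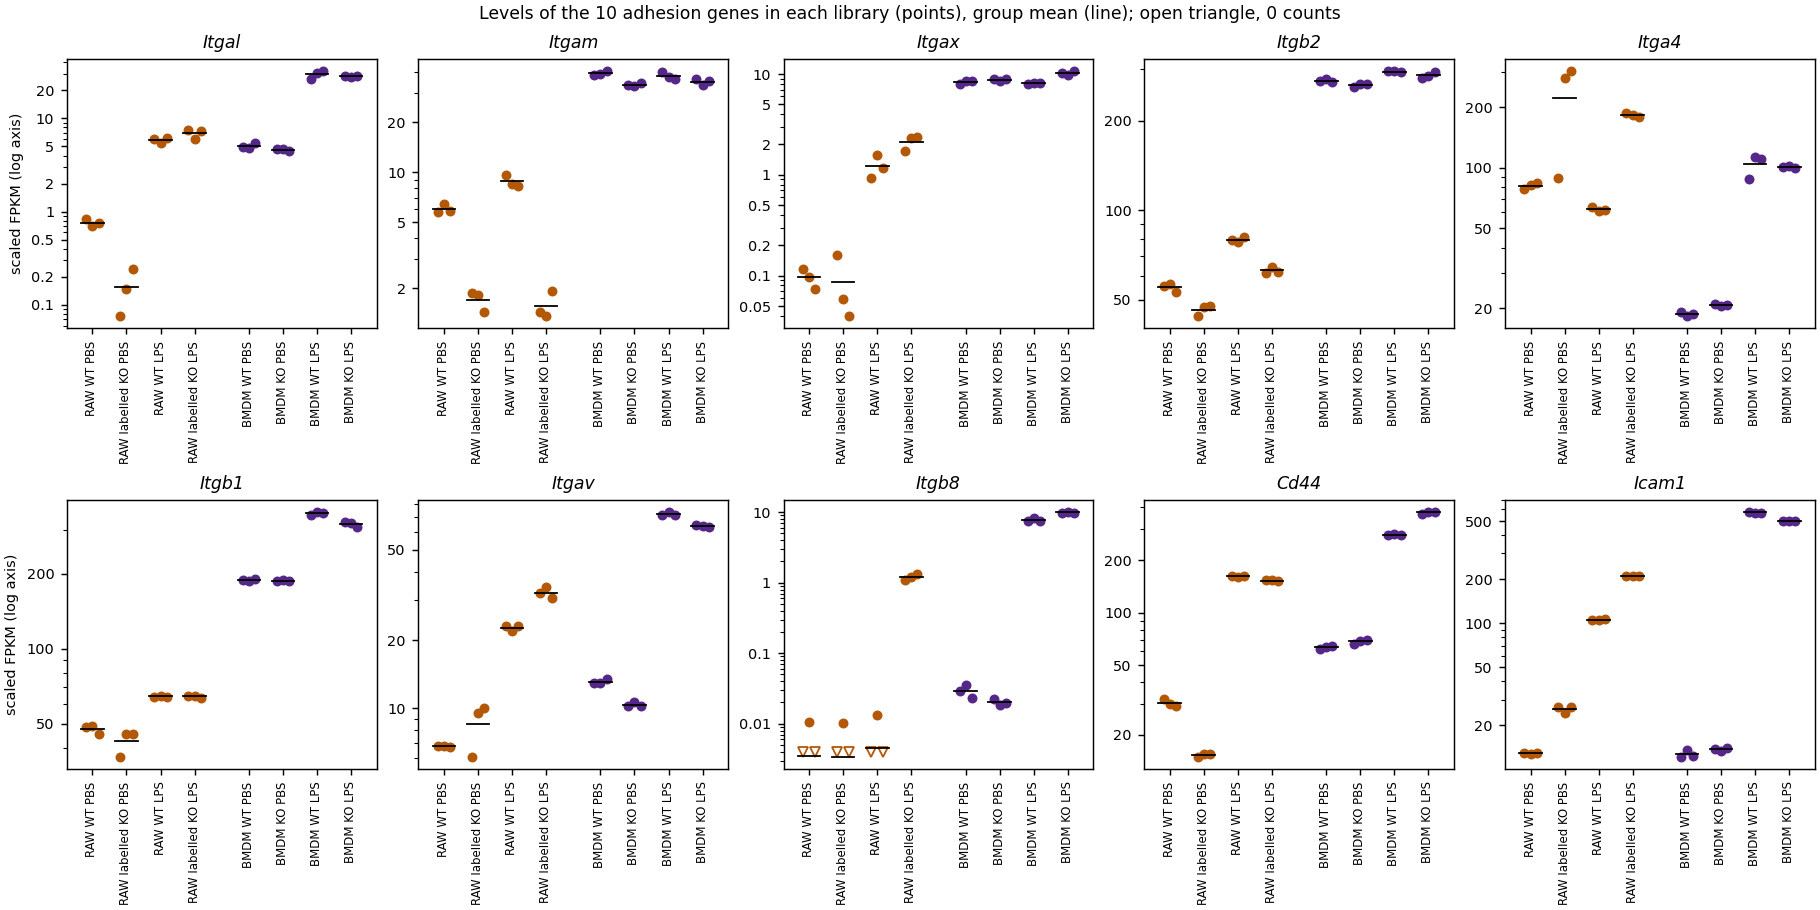
Scaled FPKM on a log axis for each of the 10 genes in 24 libraries, RAW264.7 in orange and BMDMs in purple, where points are libraries, lines are group means and open triangles mark libraries with 0 counts at an arbitrary low position. Icam1, Cd44, Itgav and Itgal are higher with LPS in every library of both cell types, and Itgb8 leaves the floor in RAW264.7 only in the LPS libraries labelled knockout.

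LPS raised 5 of the 10 genes in wild-type RAW264.7 cells, namely Icam1, Itgal, Itgax, Cd44 and Itgav, and none fell. Of all genes tested in that comparison 31.2% were called and 14.6% were called higher. In the cells labelled knockout 7 rose, the same 5 with Itgb8 and Itgb1, where 37.9% of all genes were called and 17.6% called higher. The RAW264.7 counts and medians include Itgb8, whose high level in the LPS libraries labelled knockout is what let it pass the filter, and 6 rose there without it. They also include Itgax, which passed the filter in RAW264.7 cells only through the LPS libraries of both labels. In BMDMs 7 rose in each genotype, namely Icam1, Itgb8, Itgal, Itga4, Itgav, Cd44 and Itgb1. Of all genes 56.0% were called and 25.1% called higher in wild type, and 53.5% and 23.9% in the knockout. The BMDM counts and medians include Itgb8, which passed the filter there only through the LPS libraries. The median log2 fold change of the 10 genes was 1.14 and 2.47 in RAW264.7 wild type and labelled knockout, against 0.01 and -0.01 over all genes, and 2.30 and 2.36 in BMDMs against -0.07 and -0.06. The 10 textbook LPS response genes rose in all 4 comparisons, 10 of 10, with medians of 9.37 to 10.0. Scaling by the library total alone shifted the median of all genes by -0.77 in wild-type and -0.67 in knockout BMDMs and by -0.22 and -0.24 in RAW264.7 cells. The split of called adhesion genes then became 6 higher and 3 lower in wild-type BMDMs, 6 and 1 in the knockout, and 6 and 0 in RAW264.7 cells labelled knockout. The share of all genes called under that scaling is not given here, so these splits cannot be set against a background.

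**Figure D3:**
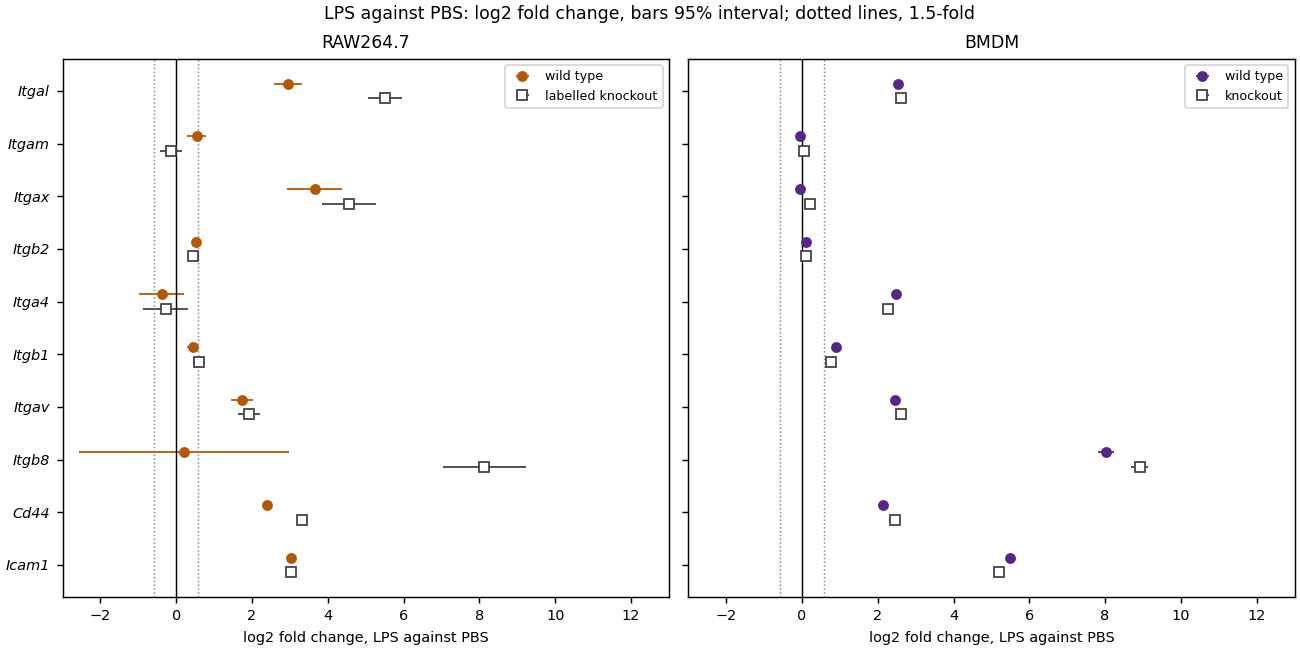
Points are log2 fold changes of LPS against PBS for the 10 genes in wild type (filled circles) and knockout or, in RAW264.7, labelled knockout (open squares), bars are 95% intervals and dotted lines mark 1.5-fold. Itgb8 reaches 8.02 and 8.91 in BMDMs and 8.12 only in RAW264.7 cells labelled knockout, whose LPS libraries alone let it pass the filter there. In BMDMs too it passed only through the LPS libraries, as did Itgax in RAW264.7 cells. Itgam and Itgb2 lie within 1.5-fold in every group. Scaling by library total alone moves them to -0.83 and -0.67 in wild-type BMDMs and to -0.61 and -0.56 in knockout BMDMs.

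Between genotypes, 5 of the 10 genes differed in RAW264.7 cells with PBS, where Itga4 and Icam1 were higher and Itgam, Itgal and Cd44 lower in libraries labelled knockout. In that comparison 22.8% of all genes were called. With LPS 5 differed again, with Itgb8, Itga4, Icam1 and Itgax higher and Itgam lower, where 33.0% of all genes were called, or 4 without Itgb8. In BMDMs 0 of 10 were called with PBS and 0 of 10 with LPS, where 3.77% and 9.10% of all genes were called. Without the fold requirement, at the adjusted p alone, 4 genes passed with PBS (16.3% of all genes) and 7 with LPS (34.7% of all genes). At an unadjusted p under 0.05 the background was 26.7% and 42.6% of genes. Scaling by the library total moved the median of all genes by 0.14 in the BMDM comparison with LPS, where Itgam then stood at 0.02, Itgb1 at 0.0027, Itgav at -0.03, Icam1 at -0.05 and Cd44 at 0.57. The genotype-by-LPS interaction, the difference between the LPS responses of both genotypes, was called for Cd44 and Itgal in RAW264.7 cells, 2 of 10 where 3.23% of all genes were called, and for 0 of 10 in BMDMs, where 5.68% were. By adjusted p alone 5 genes had an interaction in BMDMs, a count for which no share of all genes is given here. For the genotype difference in RAW264.7 cells the median over the 10 genes was -0.15 with PBS and 0.37 after LPS, against 0.01 and -0.01 over all genes. In BMDMs it was -0.03 and -0.05, against -0.00287 and 0.00831.

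**Figure D4:**
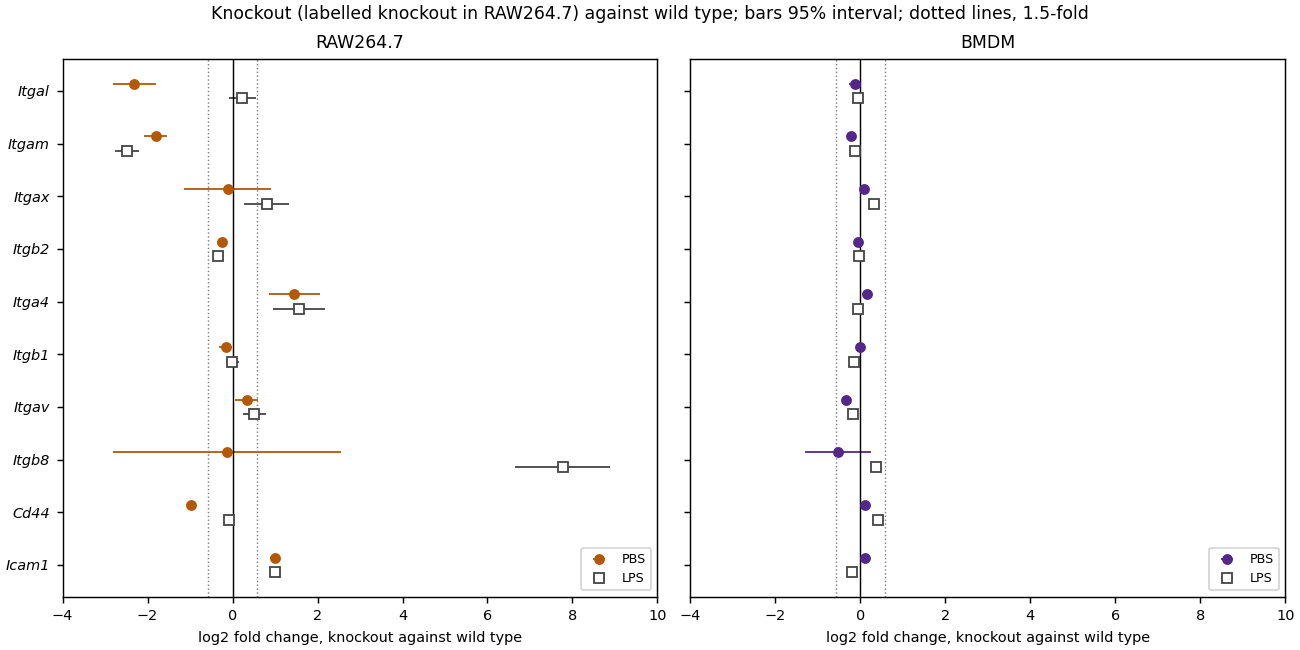
Points are log2 fold changes of knockout (in RAW264.7, labelled knockout) against wild type with PBS (filled circles) and LPS (open squares), bars are 95% intervals and dotted lines mark 1.5-fold. In BMDMs all 20 points lie within 1.5-fold, while in RAW264.7 cells Itgam lies at -1.81 and -2.48 and Itga4 at 1.46 and 1.56. Itgb8 is drawn for RAW264.7 cells too, although only the LPS libraries labelled knockout let it pass the filter there.

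Itgal, the alpha chain of LFA-1, rose with LPS in all 4 comparisons. In RAW264.7 cells its 3 wild-type PBS libraries were at 0.825, 0.697 and 0.758 scaled FPKM and the wild-type LPS libraries at 5.95, 5.48 and 6.22. PBS libraries labelled knockout were at 0.0761, 0.147 and 0.243, from 9, 17 and 25 counts, and their LPS libraries at 7.44, 6.07 and 7.26. The PBS groups did not overlap, and the LPS groups did. Itgal was thus 4.95-fold lower in PBS libraries labelled knockout (log2 -2.31, SE 0.26, adjusted p = 3.97e-05), and its LPS response was 7.75-fold in wild type and 45.1-fold in the cells labelled knockout. The interaction was 2.54 on the log2 scale (SE 0.31, adjusted p = 4.26e-04). Without replicate 1 it was 2.20 (adjusted p = 3.16e-11). In BMDMs Itgal went from 4.96, 4.85 and 5.43 to 26.4, 30.7 and 32.0 in wild type and from 4.69, 4.69 and 4.48 to 28.8, 28.1 and 28.7 in the knockout. Those are rises of 5.84-fold and 6.17-fold, with all LPS libraries above all PBS libraries. The genotypes differed there by -0.13 with PBS (95% interval -0.26 to -0.01, adjusted p = 0.168) and by -0.06 with LPS (-0.16 to 0.04, adjusted p = 0.430).

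Itgam, the alpha chain of Mac-1 and a standard macrophage marker, was lower in the RAW264.7 libraries labelled knockout with and without LPS. Wild-type PBS libraries were at 5.79, 6.44 and 5.83 scaled FPKM and those labelled knockout at 1.88, 1.83 and 1.43. With LPS the wild type was at 9.55, 8.54 and 8.27 and the cells labelled knockout at 1.43, 1.36 and 1.92. The genotypes did not overlap in either treatment. Itgam was 3.51-fold lower with PBS (log2 -1.81, SE 0.14, adjusted p = 1.31e-06) and 5.58-fold lower with LPS (log2 -2.48, SE 0.14, adjusted p = 1.07e-07). LPS against PBS was 0.54 in wild type (adjusted p = 0.00331), short of 1.5-fold in all libraries and past it without wild-type PBS replicate 2 (0.60) or wild-type LPS replicate 3 (0.59), and -0.13 in the cells labelled knockout (adjusted p = 0.497). The interaction of -0.67 had an adjusted p of 0.0888 and, without replicate 1, was -0.60 with an adjusted p of 0.00522. It was also called without labelled-knockout PBS replicate 3 (-0.77, adjusted p = 0.0404) or LPS replicate 3 (-0.84, adjusted p = 0.0347). BMDMs held more Itgam and varied less, from 38.5, 38.9 and 40.4 with PBS to 39.9, 37.4 and 36.2 with LPS in wild type and from 33.5, 32.7 and 34.1 to 36.1, 33.3 and 35.1 in the knockout. The knockout differed by -0.23 with PBS (95% interval -0.31 to -0.15, adjusted p = 6.42e-05) and by -0.12 with LPS (-0.20 to -0.04, adjusted p = 0.0243), both within 1.5-fold, and every knockout library lay below the wild type of its treatment. On the deposited FPKM, scaled by the library total, wild-type BMDM means were 49.6 with PBS and 28.0 with LPS and the log2 fold change by library total alone was -0.83. The main fit gave -0.05 in wild type, so the size of the Itgam change with LPS rested on the scaling there. In knockout BMDMs its direction did too, at 0.06 in the main fit and -0.61 by library total alone.

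Itgax, the alpha chain of CD11c and a gene used to mark dendritic cells and some macrophages, rose with LPS in RAW264.7 cells of both labels and was not called in BMDMs. In RAW264.7 cells it was at 0.0741 to 0.117 scaled FPKM in wild-type PBS libraries, from 5 to 8 counts, and at 0.93 to 1.57 with LPS. Libraries labelled knockout were at 0.0398 to 0.162 with PBS, from 3 to 14 counts, and at 1.71 to 2.39 with LPS. The LPS groups did not overlap. Its rise was 12.6-fold in wild type (log2 3.65, SE 0.37) and 23.6-fold in the cells labelled knockout (log2 4.56, SE 0.36). The count filter kept Itgax in RAW264.7 cells only through the LPS groups, so no p-value is given for these rises. The interaction was 0.91 (SE 0.60, adjusted p = 0.565), and 1.71 without replicate 1 (adjusted p = 0.0442). With LPS the libraries labelled knockout were 1.74-fold higher (log2 0.80, SE 0.27, adjusted p = 0.0237). That call was lost when wild-type LPS replicate 1 (adjusted p = 0.101) or 3 (0.0755) or labelled-knockout LPS replicate 2 (0.0801) or 3 (0.0860) was left out, and under limma (0.79, adjusted p = 0.0589 with a pseudocount of 0.1, and 0.50, short of 1.5-fold, with 1). In BMDMs the level was 7.95 to 8.50 with PBS and 7.94 to 8.21 with LPS in wild type, and 8.54 to 8.94 and 9.79 to 10.6 in the knockout. The knockout was 1.26-fold above wild type with LPS (log2 0.33, 95% interval 0.22 to 0.43, adjusted p = 1.09e-05), below the fold required, and all 3 knockout libraries were above all 3 wild-type libraries. Itgax changed with LPS in wild-type BMDMs by -0.04 (adjusted p = 0.499), a value that became -0.81 when scaled by library total alone.

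Itgb2, the shared beta chain, stayed within 1.5-fold in all 10 comparisons. In RAW264.7 cells it was 53.2 to 56.7 scaled FPKM in wild-type PBS, 44.1 to 47.7 in PBS labelled knockout, 78.1 to 81.4 in wild-type LPS and 61.7 to 64.4 in LPS labelled knockout. None of these groups overlapped, and each LPS or genotype difference tested was below 1.5-fold. LPS against PBS was 0.53 in wild type (SE 0.06, adjusted p = 1.11e-05) and the labelled knockout differed from wild type by -0.25 with PBS (SE 0.06, adjusted p = 0.00740) and by -0.35 after LPS (SE 0.06, adjusted p = 7.44e-04). BMDMs were at 270 to 276 and 261 to 266 with PBS and at 292 to 294 and 279 to 293 with LPS, wild type and knockout in that order. LPS against PBS was 0.10 in wild type (adjusted p = 0.00281) and turned to -0.67 when scaled by library total alone, with deposited means of 345 and 217 FPKM.

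The makeup of the beta-2 partners differed between groups. Of the summed level of Itgal, Itgam, Itgax and Itgad, Itgam made up 87.5 ± 1.5% (SD, n = 3) in wild-type PBS RAW264.7 cells, 55.2 ± 2.7% with LPS, 87.4 ± 3.4% in PBS libraries labelled knockout and 14.7 ± 1.6% in LPS libraries labelled knockout. Itgal made up 11.1 ± 1.3%, 37.0 ± 2.4%, 8.31 ± 5.4% and 65.1 ± 4.5% in the same order. In that LPS group labelled knockout, Itgal was the largest share in all 3 libraries, and Itgam was in the other 21. BMDMs moved from 74.5 ± 0.28% Itgam with PBS to 50.0 ± 3.3% with LPS in wild type and from 71.3 ± 0.36% to 47.3 ± 0.67% in the knockout, while Itgal went from 9.64 ± 0.35% to 39.2 ± 3.3% and from 9.85 ± 0.39% to 38.8 ± 0.56%. These shares do not depend on the scaling between libraries. Itgad, a further beta-2 partner next to Itgax, had 0 counts in the RAW264.7 libraries and at most 0.175% of the sum in BMDMs.

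**Figure D5:**
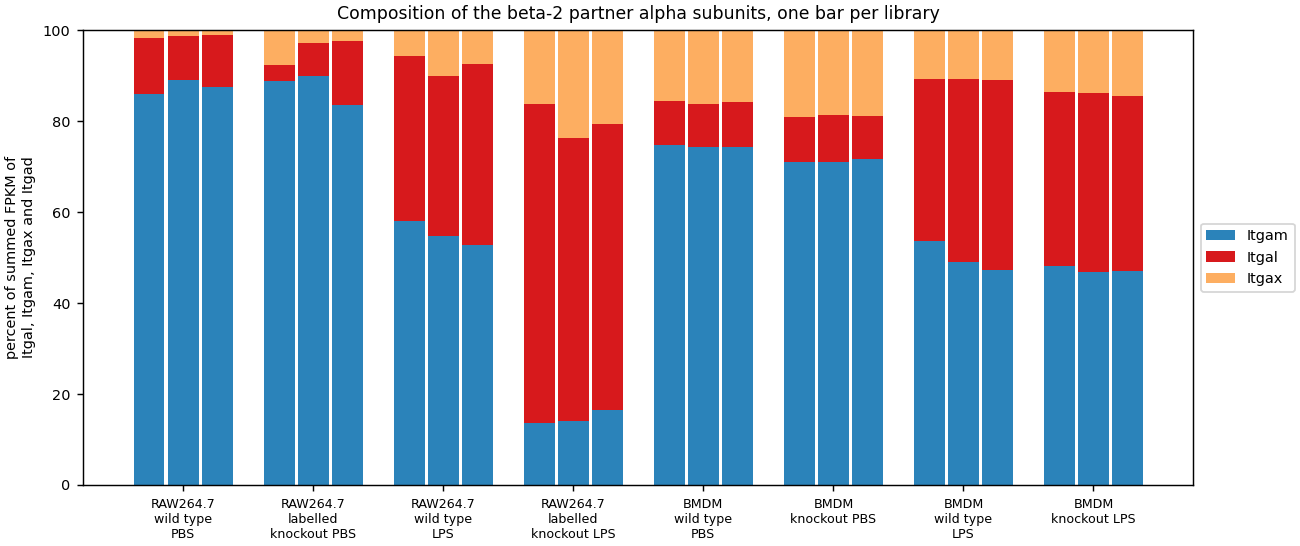
Each bar is 1 library, and its colours give the percent of the summed FPKM of Itgal, Itgam, Itgax and Itgad held by Itgam (blue), Itgal (red) and Itgax (orange), with Itgad too small to draw. Itgal is the largest share only in the 3 RAW264.7 LPS libraries labelled knockout, at 62.3% to 70.3%.

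Itga4, the alpha chain of VLA-4, rose with LPS in BMDMs and was higher in RAW264.7 libraries labelled knockout. RAW264.7 wild-type libraries were at 78.5, 81.9 and 84.0 scaled FPKM with PBS and at 63.6, 61.3 and 61.7 with LPS. PBS libraries labelled knockout were at 89.2, 279 and 302, where the lowest is replicate 1, and the LPS libraries at 187, 183 and 180. The genotypes did not overlap in either treatment. The libraries labelled knockout were 2.74-fold higher with PBS (log2 1.46, SE 0.31, adjusted p = 0.00422) and 2.95-fold higher with LPS (log2 1.56, SE 0.31, adjusted p = 0.00161). The PBS difference was not called by limma on log2(FPKM + 0.1) (1.30, adjusted p = 0.0525) or with the compared groups alone (1.47, adjusted p = 0.0530). Without replicate 1 it was 1.83 (adjusted p = 1.45e-58), and LPS against PBS in the cells labelled knockout, -0.28 with an adjusted p of 0.458 in all libraries, was -0.67 (adjusted p = 2.15e-33) and was called lower. In wild-type RAW264.7 cells LPS against PBS was -0.39 (SE 0.30, adjusted p = 0.325), with all 3 LPS libraries below the PBS libraries. BMDMs rose from 19.1, 18.4 and 18.8 to 88.3, 113 and 111 in wild type and from 21.1, 20.5 and 20.9 to 101, 102 and 100.0 in the knockout. The rises were 5.56-fold (log2 2.47, SE 0.06, adjusted p = 1.06e-25) and 4.85-fold (log2 2.28, SE 0.06, adjusted p = 7.89e-25). Between BMDM genotypes the difference was 0.15 with PBS (95% interval 0.05 to 0.26, adjusted p = 0.0544) and -0.04 with LPS (-0.15 to 0.06, adjusted p = 0.561).

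Itgb1, the beta chain of VLA-4 and of the fibronectin, laminin and collagen receptors, rose with LPS in BMDMs of both genotypes. Wild-type BMDMs lay between 187 and 190 scaled FPKM with PBS and between 345 and 355 with LPS. Knockout BMDMs lay between 187 and 189 and between 308 and 323. Both changes passed 1.5-fold, at 1.86-fold (log2 0.89, SE 0.03, adjusted p = 1.89e-21) and 1.69-fold (log2 0.76, SE 0.03, adjusted p = 1.19e-19). By library total alone they were 0.12 and 0.09 and were not called. In RAW264.7 cells the rise was 1.51-fold in the cells labelled knockout (log2 0.59, SE 0.08, adjusted p = 3.72e-05) and fell short of 1.5-fold without replicate 1 (0.50 on the log2 scale), by library total alone (0.36), under limma with either pseudocount (0.36) and with no count filter (0.58), while wild type gave 0.44 (adjusted p = 5.45e-04). The RAW264.7 genotypes overlapped in both treatments. The ratio of Itga4 to Itgb1 was 1.71 ± 0.12 (SD, n = 3) with PBS and 0.964 ± 0.024 with LPS in wild-type RAW264.7 cells, and 0.0995 ± 0.0019 and 0.298 ± 0.036 in wild-type BMDMs.

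Itgav, the vitronectin receptor alpha chain, rose with LPS in all 4 comparisons. RAW264.7 levels were 6.75 to 6.84 scaled FPKM in wild-type PBS and 22.0 to 23.1 in wild-type LPS. Libraries labelled knockout were at 6.11, 9.50 and 10.0 with PBS, replicate 1 being the lowest, and at 30.6 to 34.4 with LPS. All LPS libraries were above all PBS libraries. The rise was 3.34-fold in wild type (log2 1.74, SE 0.14, adjusted p = 5.69e-07) and 3.79-fold in the cells labelled knockout (log2 1.92, SE 0.14, adjusted p = 1.69e-07). With LPS the labelled knockout was 0.51 above wild type (adjusted p = 0.00846), below 1.5-fold. Wild-type BMDMs lay between 12.9 and 13.5 with PBS and between 71.0 and 73.6 with LPS, and knockout BMDMs between 10.2 and 10.6 and between 63.3 and 64.3. The rises were 5.51-fold (log2 2.46, SE 0.03, adjusted p = 6.47e-31) and 6.15-fold (log2 2.62, SE 0.03, adjusted p = 2.34e-31). Knockout BMDMs were lower with no overlap in either treatment, with PBS (log2 -0.33, 95% interval -0.40 to -0.27, adjusted p = 1.26e-08) and with LPS (log2 -0.18, -0.24 to -0.11, adjusted p = 5.14e-05), both within 1.5-fold.

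Itgb8, which pairs with Itgav alone, had the widest range of the 10 genes. In RAW264.7 cells the wild-type PBS, labelled-knockout PBS and wild-type LPS groups each held 2 counts in all, in replicate 2, and replicates 1 and 3 were at 0. The LPS libraries labelled knockout held 129, 161 and 170 counts, or 1.08, 1.19 and 1.35 scaled FPKM. The count ratio was 255 to wild-type LPS (exact 95% interval 70.3 to 2116, for counting error only) and 342 to labelled-knockout PBS (94.2 to 2836). Since the count filter kept Itgb8 only through this group, no p-value is given for it in RAW264.7 cells. Its calls in the RAW264.7 counts above and its intervals in the figures are no support for a difference. In BMDMs 27 and 18 counts in the wild-type and knockout PBS groups became 4228 and 5546 with LPS. The scaled FPKM went from 0.0288, 0.0360 and 0.0228 to 7.42, 8.33 and 7.44 in wild type, and from 0.0228, 0.0182 and 0.0196 to 9.86, 10.1 and 9.87 in the knockout. Every LPS library was far above every PBS library, with log2 fold changes of 8.02 (SE 0.11, adjusted p = 2.28e-31) and 8.91 (SE 0.11, adjusted p = 3.60e-32). With LPS the knockout was 1.29-fold above wild type (log2 0.36, 95% interval 0.27 to 0.46, adjusted p = 3.16e-07), with no overlap and below the fold required. The ratio of Itgb8 to Itgav with LPS was 0.107 ± 0.0053 in wild-type BMDMs, 0.156 ± 0.0026 in knockout BMDMs and 0.0374 ± 0.0058 in RAW264.7 cells labelled knockout.

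Cd44, the hyaluronan receptor, rose with LPS everywhere. Wild-type RAW264.7 libraries went from 32.1, 30.0 and 29.3 scaled FPKM to 162, 161 and 163. Libraries labelled knockout started lower, at 15.0, 15.5 and 15.6, and reached 153, 154 and 151. The genotypes lay far apart with PBS and close together with LPS, without overlap in either. With PBS the labelled knockout was 1.98-fold lower (log2 -0.99, SE 0.06, adjusted p = 1.19e-07), and with LPS the difference was -0.08 (95% interval -0.19 to 0.02, adjusted p = 0.216). LPS raised Cd44 5.30-fold in wild type and 9.93-fold in the cells labelled knockout, an interaction of 0.90 (SE 0.08, adjusted p = 4.88e-05), which was 0.89 without replicate 1. BMDM levels went from 62.0, 63.3 and 64.7 to 278, 282 and 278 in wild type and from 66.5, 69.2 and 69.4 to 369, 377 and 376 in the knockout. The rises were 4.41-fold and 5.47-fold. Knockout BMDMs were above wild type in every library, by 0.11 with PBS (95% interval 0.05 to 0.17, adjusted p = 0.00885) and 0.42 with LPS (0.37 to 0.48, adjusted p = 1.40e-12), or 1.34-fold, within 1.5-fold. The interaction was 0.31 (SE 0.04, adjusted p = 1.66e-06), also below 1.5-fold.

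Icam1, the counter-receptor of LFA-1 and Mac-1, had the largest called fold after Itgb8 in BMDMs. Its wild-type BMDM libraries were at 12.2, 13.4 and 12.3 scaled FPKM with PBS and at 577, 568 and 572 with LPS, and the knockout at 13.9, 13.4 and 13.9 and at 499, 499 and 500.0. The response was 45.2-fold (log2 5.50, SE 0.04, adjusted p = 1.98e-37) and 36.4-fold (log2 5.19, SE 0.04, adjusted p = 4.23e-37). With LPS the knockout lay below wild type in every library, at -0.20 (95% interval -0.26 to -0.14, adjusted p = 9.09e-06), within 1.5-fold, and the interaction was -0.31 (adjusted p = 2.20e-05). In RAW264.7 cells the libraries were at 12.9, 12.8 and 12.9 in wild-type PBS, 26.8, 24.3 and 26.5 in PBS labelled knockout, 105, 105 and 107 in wild-type LPS and 212, 209 and 211 in LPS labelled knockout. Libraries labelled knockout were higher throughout. The difference was 2.01-fold with PBS (log2 1.01, SE 0.06, adjusted p = 1.33e-07) and 1.99-fold with LPS (log2 0.99, SE 0.06, adjusted p = 1.07e-07). LPS raised Icam1 8.20-fold and 8.13-fold, and the interaction was -0.01 (95% interval -0.17 to 0.15, adjusted p = 0.979).

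The other integrin subunits, 18 genes of which 9 were tested in RAW264.7 cells and 10 in BMDMs, are given next. LPS raised 1 and lowered 3 in wild-type RAW264.7 cells, 1 and 2 in those labelled knockout, 4 and 3 in wild-type BMDMs and 4 and 4 in knockout BMDMs, with medians of -0.18, -0.30, -0.13 and -0.08. Itga5, the alpha chain of the fibronectin receptor, rose by 2.70 (SE 0.06) and 3.19 (SE 0.06) in RAW264.7 and by 2.36 (SE 0.04) and 2.50 (SE 0.04) in BMDMs, wild type and knockout in that order. Itgb5 fell by 1.08 and 1.46 in RAW264.7 cells, and Itgb3, the beta chain of the platelet and osteoclast integrins, fell by 1.78 and 1.76 in BMDMs. Itgb7, a further partner of Itga4, was at 8.25 scaled FPKM in wild-type PBS RAW264.7 cells and 0.896 in those labelled knockout (log2 -3.19, SE 0.17, adjusted p = 5.67e-08), and at 7.53 and 0.983 with LPS (log2 -2.92). By genotype 0 rose and 1 fell with PBS and 1 rose and 3 fell with LPS in RAW264.7 cells. In either BMDM comparison 0 of 10 were called. Genotype calls over all genes came to 22.8% (PBS) and 33.0% (LPS) for RAW264.7, and 3.77% and 9.10% for BMDMs. With shares this low in BMDMs, 0 of 10 does not set these subunits apart. The LPS response was called for 31.2% and 37.9% of all RAW264.7 genes and 56.0% and 53.5% in BMDMs, wild type first. Medians over all genes were 0.01 and -0.01, then -0.07 and -0.06. The same background applies to the lists that follow.

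Genes of integrin activation and adhesion adaptors, 28 with 26 tested in RAW264.7 and 27 in BMDMs, rose with LPS in 7 and fell in 1 case in wild-type RAW264.7 cells, 8 and 3 in those labelled knockout, 11 and 3 in wild-type and 10 and 2 in knockout BMDMs. Medians were 0.43, 0.16, 0.27 and 0.37. The kinase Src, which acts downstream of integrins, went from 0.0295 to 8.12 scaled FPKM in wild-type RAW264.7 cells and from 0.359 to 38.3 in wild-type BMDMs (log2 7.98 and 6.73). Fgr, a Src-family kinase of myeloid cells, rose by 3.98 and 5.11 in RAW264.7 cells, with an interaction of 1.14 (SE 0.14, adjusted p = 5.30e-04), and was lower by genotype with PBS (log2 -1.69). Paxillin (Pxn) had an interaction of -0.80 (adjusted p = 5.83e-04). Zyxin (Zyx), a focal adhesion protein, was at 99.2 in wild-type and 38.8 in knockout LPS BMDMs (log2 -1.35, SE 0.04, adjusted p = 4.79e-21), the 1 gene of this list called by genotype there, with an interaction of -1.33. It was also lower with LPS in RAW264.7 cells labelled knockout (log2 -1.08), where Syk was higher (log2 1.02), and Tln2 was higher with PBS (log2 1.03). By genotype 4 rose and 4 fell with PBS and 3 rose and 4 fell with LPS in RAW264.7 cells. Of all genes 22.8% and 33.0% were called in those comparisons.

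Other adhesion receptors and counter-receptors, 22 genes with 13 tested in RAW264.7 and 17 in BMDMs, had 6 rises and 3 falls with LPS in each RAW264.7 genotype and 10 rises and 2 falls in each BMDM genotype, with medians of 0.58, 0.32, 1.66 and 1.62. Vcam1, the ligand of VLA-4, went from 0.387 to 38.3 scaled FPKM in knockout BMDMs (log2 6.63, SE 0.08), with an interaction of 0.90 (SE 0.14, adjusted p = 2.14e-05). E-selectin (Sele) was at 0 counts in wild-type PBS BMDMs and at 8.27 with LPS, and at 5.43 in knockout LPS BMDMs (log2 -0.60, adjusted p = 2.79e-05). Selp went from 0.0189 to 1.47 in wild-type BMDMs. Icam5 was higher in RAW264.7 cells labelled knockout with PBS (log2 1.21) and LPS (log2 0.88), as was Jam2 with PBS (log2 0.87) and Cd81 with LPS (log2 0.76). By genotype 2 rose and 3 fell in each RAW264.7 treatment, 1 rose in PBS BMDMs, and 1 rose and 1 fell in LPS BMDMs.

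Matrix ligands, hyaluronan enzymes and TGF-beta genes, 23 with 12 tested in RAW264.7 and 15 in BMDMs, rose in 7 and fell in 1 case with LPS in wild-type RAW264.7 cells, 6 and 2 in those labelled knockout, 5 and 5 in wild-type and 5 and 4 in knockout BMDMs. Osteopontin (Spp1), a ligand of Itgav integrins and Cd44, was at 816 scaled FPKM in wild-type PBS RAW264.7 cells and 59.2 in those labelled knockout (log2 -3.78, SE 0.14, adjusted p = 3.22e-09), and its interaction was 1.95 (SE 0.18, adjusted p = 6.59e-05). Tenascin-C (Tnc) was at 2.86 in wild-type and 32.6 in labelled-knockout LPS RAW264.7 cells (log2 3.51, SE 0.13, adjusted p = 3.82e-09). Mfge8, a bridge from dying cells to Itgav integrins, was lower in the PBS libraries labelled knockout (log2 -1.53). Lrrc32, which holds latent TGF-beta at the surface, was lower in LPS RAW264.7 cells labelled knockout (log2 -4.15) and higher in LPS knockout BMDMs (log2 1.67, SE 0.17, adjusted p = 2.42e-09), with a BMDM interaction of 1.19. The hyaluronidase Hyal2 was also higher there (log2 1.24), and serglycin (Srgn), a Cd44 ligand, rose with LPS by 3.87 and 3.96 in BMDMs, while Hyal1 fell by 2.59 in wild type.

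Marker levels stand here beside the genotype differences. Of the 10 macrophage markers 9 were tested, of which 1 was higher and 4 were lower in libraries labelled knockout with PBS, and 1 and 4 with LPS, where 22.8% and 33.0% of all genes were called. Mertk was at 0 counts throughout. Their summed deposited FPKM ran from 3501 to 3552 in wild-type PBS, 1269 to 1581 in PBS labelled knockout, 4137 to 4269 in wild-type LPS and 1457 to 1522 in LPS labelled knockout. Lyz2 was lower in these libraries with PBS and LPS (log2 -2.73 and -2.46), and Cd14 with LPS (log2 -1.54). The 8 dendritic cell markers summed to 0.22 to 0.49, 0.89 to 1.72, 0.84 to 1.44 and 5.32 to 5.71 in the same order. Ccr7 and Cd209a were at 0 counts in all 4 groups, and Irf4 led the list (log2 2.08 and 2.56 by genotype). The 8 neutrophil markers summed to at most 0.73 and the 8 T and NK cell markers to at most 0.25, with Ly6g and Cd3e at 0. Their part in the genotype differences of Itgam, Itgal and Itgax was not tested. In BMDMs with PBS the macrophage sum ran from 14981 to 15408 in wild type and from 16736 to 17927 in the knockout. With LPS it ran from 12537 to 12808 and from 13060 to 13346. The neutrophil sum ran from 6 to 10.7, mostly Mmp8, and the dendritic sum from 1.09 to 2.25. Of the 10 macrophage markers 0 were higher and 1 lower in the knockout with PBS, and 0 and 2 with LPS. Of all genes 3.77% and 9.10% were called. Those lower were Fcgr1 with PBS (log2 -1.19) and LPS (log2 -0.78) and Mertk with LPS (log2 -0.73).

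Patterns over the libraries were compared on log2(FPKM + 0.1) of the deposited values, as the mean of Pearson's r over 12 RAW264.7 and 12 BMDM libraries among 10356 genes. These points share groups and library scaling, so the coefficients are a description. Most like Icam1 were Swap70 (0.995) and B4galt5 (0.994), most like Itgav were Zc3hav1 (0.998) and Sppl2a (0.996), and most like Itga4 were Atp11a (0.993) and Ppip5k2 (0.987). Cd44 went with Ccl9 (0.992) and Slc12a4 (0.991), Itgal with Niban1 (0.992) and Rasgef1b (0.992), and Itgb8 with Trim36 (0.979) and Prdm1 (0.963). The nearest genes to Itgam were Fos (0.976) and Trpv2 (0.969), to Itgax Ncl (0.979) and Myc (0.975), to Itgb2 AA414768 (0.972) and Lratd2 (0.971), and to Itgb1 Pfkp (0.929) and Niban1 (0.924).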

How the data were processed

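RNA-seq of 24 libraries was used, 3 in each of 8 groups. For each cell type the authors deposited a table of raw read counts and FPKM by gene. Recomputing FPKM from the counts matched the deposited FPKM within 1% for 99.9% and 99.5% of values over 50 counts. The sources used here name no aligner or counter. The submitters' processing notes name mm10, but 0 of the 10 genes have their GRCm38 start in the tables, so no deposited coordinate is printed.

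Counts were fitted with edgeR 4.0.16 (TMM, filterByExpr, quasi-likelihood F test) under R 4.3.3 on 12 libraries per cell type, with 4 group means and 5 comparisons. The study's methods name limma and not its input, and limma on log2 FPKM was kept as an alternative because raw counts were held. A call needed an adjusted p under 0.05 and 1.5-fold. The scripts were tested on simulated data. With 3 libraries against 3, an exact permutation test cannot go below 0.1. The genes and lists were chosen with earlier results of these data known, and the 3 motifs after the promoters were seen. From each list, at most 2 called genes per comparison were named, by largest fold at a mean FPKM of at least 1, and 2 most similar genes per adhesion gene. Some genes that this rule names are not reported here. Alternatives were DESeq2 1.42.0, limma 3.58.1 with pseudocounts of 0.1 and 1, RLE and library-total scaling, other filters, the compared groups alone, the adjusted p alone, the replicate block and each library left out.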

Additional observations from a re-analysis of the deposited data

Results flagged for a closer look

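The LPS response differed between genotypes in RAW264.7 cells by the interaction test for Cd44 (0.90 on the log2 scale) and Itgal (2.54). Pairs of cell types with opposite directions in every library are listed next, and the difference between cell types was not tested. For Cd44 with PBS, knockout against wild type was -0.99 in RAW264.7 cells (labelled knockout) and 0.11 in BMDMs. With LPS that Cd44 difference was -0.083 in RAW264.7 cells (adjusted p = 0.216) and 0.42 in BMDMs. Knockout against wild type with LPS was 0.51 in RAW264.7 cells and -0.18 in BMDMs for Itgav, and 0.99 and -0.20 for Icam1. By library total alone these BMDM values were -0.03 (adjusted p = 0.425) and -0.05 (adjusted p = 0.182), so they rest on the scaling. All BMDM genotype differences listed here were within 1.5-fold. LPS against PBS in wild type was -0.39 for Itga4 in RAW264.7 cells (adjusted p = 0.325) and 2.47 in BMDMs. The RAW264.7 directions rest on labels that the Olfml3 counts go against.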

How the results depend on the processing

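Of 170 recomputed counts of called genes, 163 stayed within 1.5 times the main count, and of 1696 recomputed values of single genes 1625 kept their direction and side of the threshold, 46 gained a call, 19 lost one and 6 turned over. DESeq2 called 4 genes for the RAW264.7 interaction, in place of 2, and leaving out each library in turn gave 2 to 5. The 5 were found without labelled-knockout PBS replicate 1. Both the 4 and the 5 include Itgb8, which passed the filter only through the LPS libraries labelled knockout. By adjusted p alone the count was 8 for LPS in wild-type RAW264.7 cells. In BMDMs it was 4 by genotype with PBS (16.3% of all genes) and 7 with LPS (34.7%). For the BMDM interaction it was 5, where limma on log2(FPKM + 0.1) called 1. Shares of all genes are not given here for the other alternative counts, so those cannot be set against a background. In BMDMs with LPS, Itgb2 in wild type was -0.67 by library total and by limma with either pseudocount (0.10 in the main fit), and Itgam in the knockout was -0.61, -0.61 and -0.60 (0.06). In RAW264.7 cells Itga4 by genotype with PBS lost its call under limma on log2(FPKM + 0.1) (1.30, adjusted p = 0.0525), though not with a pseudocount of 1, and with the compared groups alone (1.47, adjusted p = 0.0530), and Itgax with LPS under limma with either pseudocount (0.79, adjusted p = 0.0589, and 0.50). The cause was not tested. Replicate numbers are shared between groups. Deviations of same-numbered libraries correlated at -0.04 to 0.13 in RAW264.7 cells and -0.02 to 0.03 in BMDMs. Libraries of unlike number correlated at -0.10 to 0.06 and -0.03 to 0.02. Correlations this small cannot decide whether same-numbered libraries were paired. With the replicate block 100 of 100 gene results kept their call. Depth limits Itgb8, Itgax and Itgal in RAW264.7 PBS libraries, where 0 to 79 counts lie behind a value.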
